A study of Mus musculus with 20 samples.

Results

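The 9 genes described here encode the subunits of inhibin and activin (Inha, Inhba and Inhbb), the proteins that bind activin outside the cell (Fst and Fstl3), activin receptors (Acvr1b, Acvr2a and Acvr2b) and the inhibin coreceptor betaglycan (Tgfbr3). They were chosen by name, matched by gene symbol to the Ensembl identifiers of the count tables, and all 9 were found among 55487 genes. All 9 passed the filter on low counts in every comparison. Levels were measured in mural granulosa cells (GCs), which form the inner layers of the follicle wall around the antrum, from 20 adult female mice aged 77 ± 5 days. The mice belonged to the Dummerstorf FL1 line, which was bred over many generations for fertility by litter size and litter weight, or to the unselected ctrl line of the same founder population. Each line was taken in estrus and in diestrus of the natural cycle, as read from vaginal smears, which gave 4 groups of 5 mice. For every mouse the GCs of its 7 to 10 largest follicles were pooled into 1 sample, with the oocyte and its cumulus cells left out. The paper states that FL1 mice carry neither a transgene nor a knockout, and it names none for ctrl mice. Because each way of breeding is represented by 1 line, selection and chance drift between the lines cannot be told apart.

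Activins are dimers of beta subunits, while inhibins pair the alpha subunit with a beta subunit. GCs are the main ovarian source of both. Inhibin of ovarian origin lowers the release of FSH from the pituitary, whereas activin raises it and also acts inside the follicle, where it binds a type II receptor that recruits a type I receptor and passes the signal to SMAD2 and SMAD3. Follistatin and follistatin-like 3 trap activin before it reaches its receptors, and betaglycan helps inhibin to hold the type II receptors and so to block activin.

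The measurement was the number of sequencing reads counted on each gene with a library method that sequences transcripts from their 3′ end, so that a count does not grow with the length of the transcript and was not divided by it. Between 5446576 and 8257041 reads were counted on genes per mouse, which was 48.9% to 58.4% of all reads in the deposited tables. Levels are given as CPM, the count relative to the size of the library after TMM scaling, which removes differences in library composition. The labelled cell type was checked with 8 granulosa markers, whose summed level was 3866 to 10504 CPM per mouse and of which none was at 0 throughout a group. Theca markers summed to 60.9 to 317 CPM, with Insl3 at 0 in 3 of the 4 groups, and leucocyte markers to 3.39 to 97.8 CPM. In such samples of many cells, fewer cells of a type and less RNA per cell cannot be told apart.

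Between the stages, Fst and Inhba were stronger expressed in diestrus than in estrus. With the line taken into account, Inhba was 2.76-fold and Fst 2.10-fold higher in diestrus (log2 fold change 1.46 with a standard error of 0.33 and 1.07 with a standard error of 0.22, 10 mice per stage, adjusted p = 0.0104 and 0.00457 from edgeR's quasi-likelihood test with Benjamini-Hochberg adjustment). These were 2 of the 9 genes, both higher, where 3.17% of the 14938 genes tested passed the same threshold of 0.05 and 1.61% passed it as higher. Inhba passed in neither line alone, and robust estimation of the variance moved its adjusted p to 0.0519 from edgeR. Between the lines, no member passed the test in estrus or in diestrus. Inhba and Inhbb were each 2.0-fold higher in GCs of FL1 mice than of ctrl mice in estrus, but with adjusted p = 0.326 and 0.205 from edgeR these differences did not pass.

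The members spanned a wide range of levels. By the mean over the 20 mice, Inha was ranked 10 of all genes, Inhba 24, Inhbb 50 and Fst 75. The medians over the 20 mice were 4635 CPM for Inha, 1527 for Inhba, 1265 for Inhbb and 780.2 CPM for Fst. Tgfbr3 followed with a median of 73.8 CPM, then Acvr1b with 21.1, Acvr2a with 19.9, Acvr2b with 17.4 and Fstl3 with 5.67 CPM. The ligand subunits and follistatin thus stood apart from the receptors in every mouse: Fst, the lowest of the first 4, was above Tgfbr3 in 20 of 20 mice, and the ranges did not overlap. Neighbours on either side of that step were less well separated. Inha was above Inhba in 19 of 20 mice, Inhba above Inhbb in 17 and Inhbb above Fst in 16, while the order of Acvr1b and Acvr2a held in 13 and that of Acvr2a and Acvr2b in 12 of 20 mice. The other beta subunit genes were close to absent, since Inhbc had no read in any mouse and Inhbe 1 read in all 20 mice together.

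**Figure D1:**
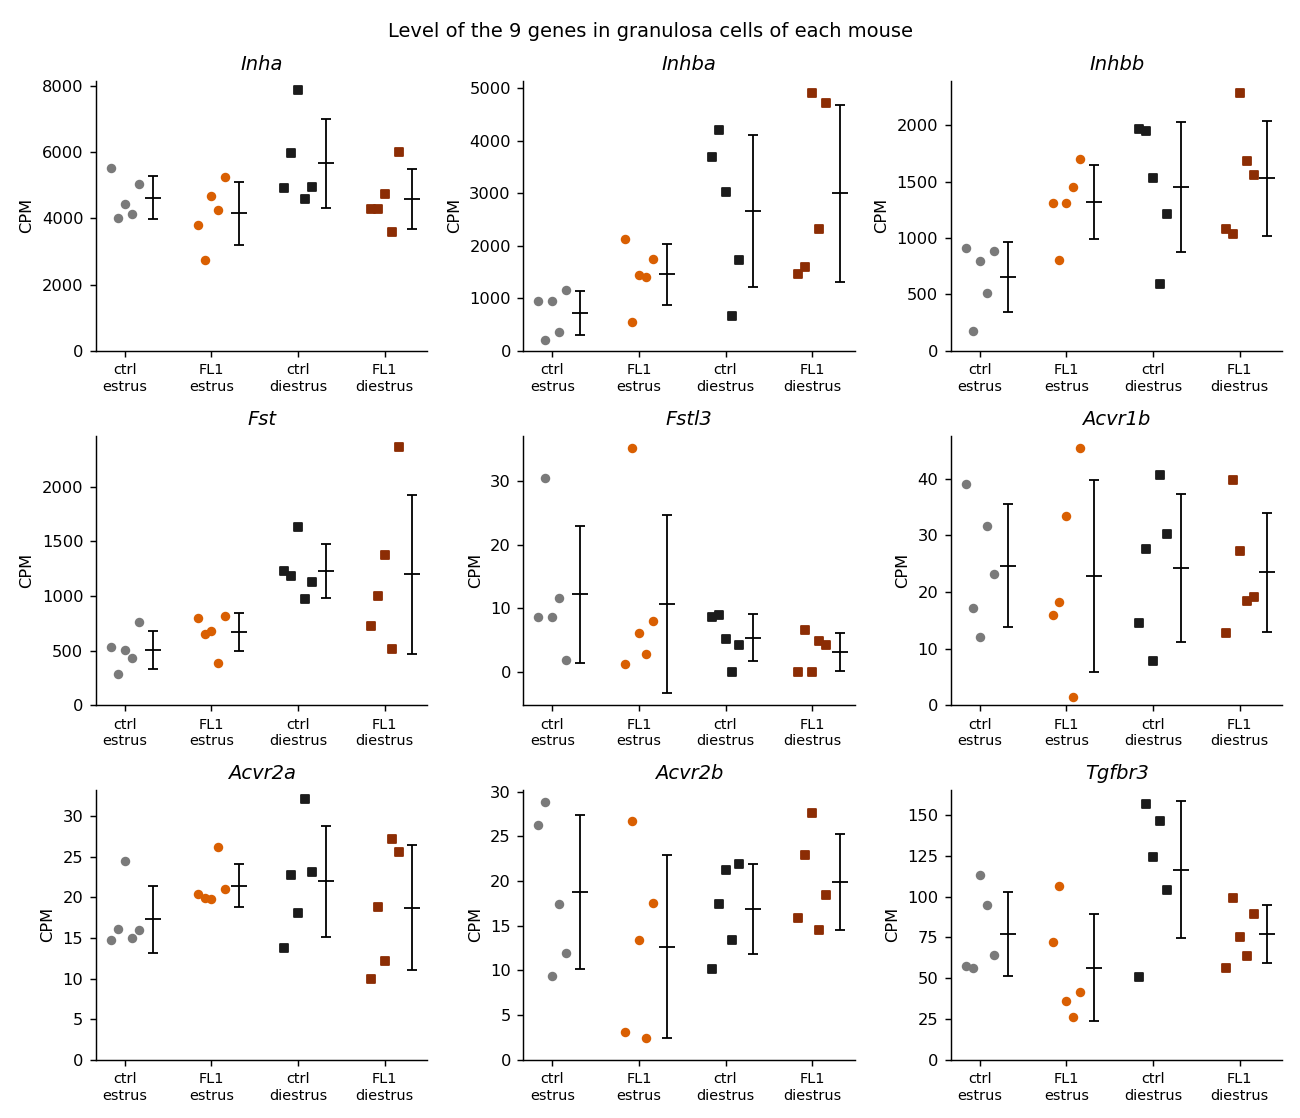
Level of each of the 9 genes in CPM (linear axis, its own scale per gene) in each of the 20 mice, with 5 points per group (circles for estrus, squares for diestrus) and the group's mean and standard deviation beside them. Fst in ctrl mice is the gene whose estrus and diestrus points do not overlap, while the receptor genes show no such gap in any comparison.

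Inha (ENSMUSG00000032968, chromosome 1, 75507077 to 75510366, plus strand, GRCm38) encodes the alpha subunit, which is found in inhibin and not in activin. It was the steadiest of the 9 genes relative to its level, with a highest value 2.89 times the lowest over the 20 mice. Its levels were 5526, 4005, 4419, 4127 and 5048 CPM in ctrl mice 1 to 5 in estrus and 3798, 2728, 4687, 4264 and 5255 CPM in FL1 mice in estrus. The diestrus samples held 4903, 5981, 7884, 4583 and 4953 CPM in ctrl mice and 4292, 4275, 4736, 3586 and 6013 CPM in FL1 mice. All groups overlapped, with the highest value in ctrl mouse 3 in diestrus and the lowest in FL1 mouse 2 in estrus. The log2 fold change was 0.29 between the stages in ctrl mice (95% confidence interval −0.09 to 0.67) and 0.14 in FL1 mice (−0.31 to 0.59), and between the lines it was −0.17 in estrus (−0.56 to 0.23) and −0.30 in diestrus (−0.72 to 0.13). None of these passed the test, but the intervals leave room for differences of up to 0.72 on the log2 scale.

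Inhba (ENSMUSG00000041324, chromosome 13, 16011851 to 16031621, plus strand) encodes the beta A subunit of inhibin A and activin A. Its level varied far more, with a highest value 23.4 times the lowest. Inhbb (ENSMUSG00000037035, chromosome 1, 119415465 to 119422248, minus strand) encodes the beta B subunit of inhibin B and activin B, and its values spread over 13.2 times. The level of the one beta subunit followed that of the other from mouse to mouse. Because they moved together, the 250 bases before the start of both genes are shown, read in the direction of transcription from RefSeq on GRCm38.p6 at chr13:16011601-16011850 on the plus strand and at chr1:119422249-119422498 on the minus strand, with capitals for the matches to the motifs listed after them.
Inhba: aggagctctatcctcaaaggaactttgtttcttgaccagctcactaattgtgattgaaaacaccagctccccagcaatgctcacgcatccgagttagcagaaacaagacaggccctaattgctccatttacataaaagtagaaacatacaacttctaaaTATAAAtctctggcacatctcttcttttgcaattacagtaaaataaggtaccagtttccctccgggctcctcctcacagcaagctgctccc
Inhbb: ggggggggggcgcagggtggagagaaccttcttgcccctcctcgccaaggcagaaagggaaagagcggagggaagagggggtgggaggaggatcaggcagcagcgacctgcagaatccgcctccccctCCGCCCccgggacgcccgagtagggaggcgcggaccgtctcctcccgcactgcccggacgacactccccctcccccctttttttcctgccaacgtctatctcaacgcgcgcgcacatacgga
The motifs searched on both strands were the TATA box TATAAA, the GC box GGGCGG, the cAMP response element core TGACG, the E box CACGTG, the SF1 or LRH1 element AAGGTCA, the GATA element AGATAA, the forkhead element GTAAACA, the SMAD palindrome GTCTAGAC and the SMAD element CAGAC. The Inhba window held 1 match, a TATAAA at 91 to 86 bases before the start, and 12.4% of 32851 such windows of the genome held this motif. The Inhbb window also held 1 match, a GC box at 122 to 117 bases before the start and found as CCGCCC, which 32.7% of the windows held. With 1 match per window no matches overlapped. The windows shared no motif of this list, and their GC contents of 43.2% and 68.0% lay on either side of the median of 52.4%. The remaining motifs were present in 17.8% (TGACG), 6.02% (CACGTG), 4.08% (AAGGTCA), 9.99% (AGATAA), 3.17% (GTAAACA), 0.167% (GTCTAGAC) and 42.2% (CAGAC) of all windows.

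In estrus the GCs of ctrl mice 1 to 5 held 947, 210, 952, 351 and 1159 CPM of Inhba, and those of FL1 mice 2128, 548, 1447, 1412 and 1750 CPM. In diestrus the values were 3679, 4203, 3019, 661 and 1733 CPM in ctrl mice and 1455, 1600, 4899, 2315 and 4713 CPM in FL1 mice. Ctrl mice 2 and 4 in estrus, FL1 mouse 2 in estrus and ctrl mouse 4 in diestrus were low within their groups. Of the 5 ctrl mice in diestrus 4 were above every ctrl mouse in estrus, and ctrl mouse 4 was below 3 of them. The order of the group means was 724 ± 417 CPM (SD, n = 5) in ctrl mice in estrus, 1457 ± 584 CPM in FL1 mice in estrus, 2659 ± 1450 CPM in ctrl mice in diestrus and 2996 ± 1685 CPM in FL1 mice in diestrus. The ranges of neighbours in this order overlapped, and only the step from ctrl to FL1 mice in estrus was larger than the larger SD of its groups.

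The stage effect on Inhba was 3.67-fold in ctrl mice (adjusted p = 0.0578 from edgeR, with 1.88 ± 0.47 as log2 fold change and its standard error) and 2.05-fold in FL1 mice (1.04 ± 0.37, adjusted p = 0.315), so that it passed the test with the lines combined but in neither line alone. The call within ctrl mice depended on the fit and on ctrl mouse 4 in diestrus. With all 10 ctrl mice kept, Inhba was called in 3 of 6 alternatives, which were DESeq2 (adjusted p = 0.0486), all 20 samples in 1 fit of edgeR (0.0430) and edgeR without the filter on low counts (1.96e-05), and the highest adjusted p was 0.196 with robust estimation. Without ctrl mouse 4 in diestrus, the log2 fold change was 2.12 with adjusted p = 0.0190 from edgeR, and the 10 fits that each left out 1 ctrl mouse gave adjusted p between 0.0190 and 0.138. With the lines combined, the adjusted p of Inhba stayed between 0.00441 and 0.0299 in the 20 fits without 1 mouse, and robust estimation of the variance moved it to 0.0519, the highest of 5 alternative settings from 3.46e-05. The line effect on Inhba was 1.00 on the log2 scale in estrus (95% confidence interval 0.17 to 1.83, adjusted p = 0.326 from edgeR) and 0.18 in diestrus (−0.72 to 1.08). A difference of these line effects was −0.83 with an interval of −2.13 to 0.48 and did not pass the test (adjusted p = 1.00 from edgeR).

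For Inhbb the estrus values were 914, 173, 798, 512 and 881 CPM in ctrl mice and 1312, 806, 1313, 1449 and 1704 CPM in FL1 mice. The diestrus values were 1967, 1953, 1530, 595 and 1217 CPM in ctrl mice and 1076, 1039, 2287, 1684 and 1562 CPM in FL1 mice. In estrus 4 of 5 FL1 mice were above every ctrl mouse, and FL1 mouse 2 with 806 CPM fell within the ctrl range. Group means were 656 ± 313 CPM (SD, n = 5) in ctrl mice in estrus, 1317 ± 327 in FL1 mice in estrus, 1452 ± 573 in ctrl mice in diestrus and 1530 ± 511 in FL1 mice in diestrus. Ctrl mice in estrus thus had the lowest mean, and the other 3 groups differed from each neighbour by less than the larger SD.

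The line effect on Inhbb in estrus was 1.00 on the log2 scale (standard error 0.33, 95% confidence interval 0.31 to 1.69, adjusted p = 0.205 from edgeR), and in diestrus it was 0.09 (−0.54 to 0.71). Between the stages Inhbb was 2.21-fold higher in diestrus in ctrl mice (log2 fold change 1.15, adjusted p = 0.173) and 1.16-fold in FL1 mice (0.22, adjusted p = 0.880), again without passing the test of edgeR. The difference of the stage effects between the lines was −0.92 for Inhbb with an interval of −1.90 to 0.05 (adjusted p = 1.00 from edgeR). Over all 20 mice, log2 levels of Inhba and Inhbb had a Pearson r of 0.924 and a Spearman rho of 0.916, and r was 0.910 for the deviations from the group means. These are descriptions, since the values of a mouse come from the same library. The same 4 mice that were low in Inhba, ctrl mice 2 and 4 in estrus, FL1 mouse 2 in estrus and ctrl mouse 4 in diestrus, were the lowest or next to lowest of their groups in Inhbb.

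**Figure D2:**
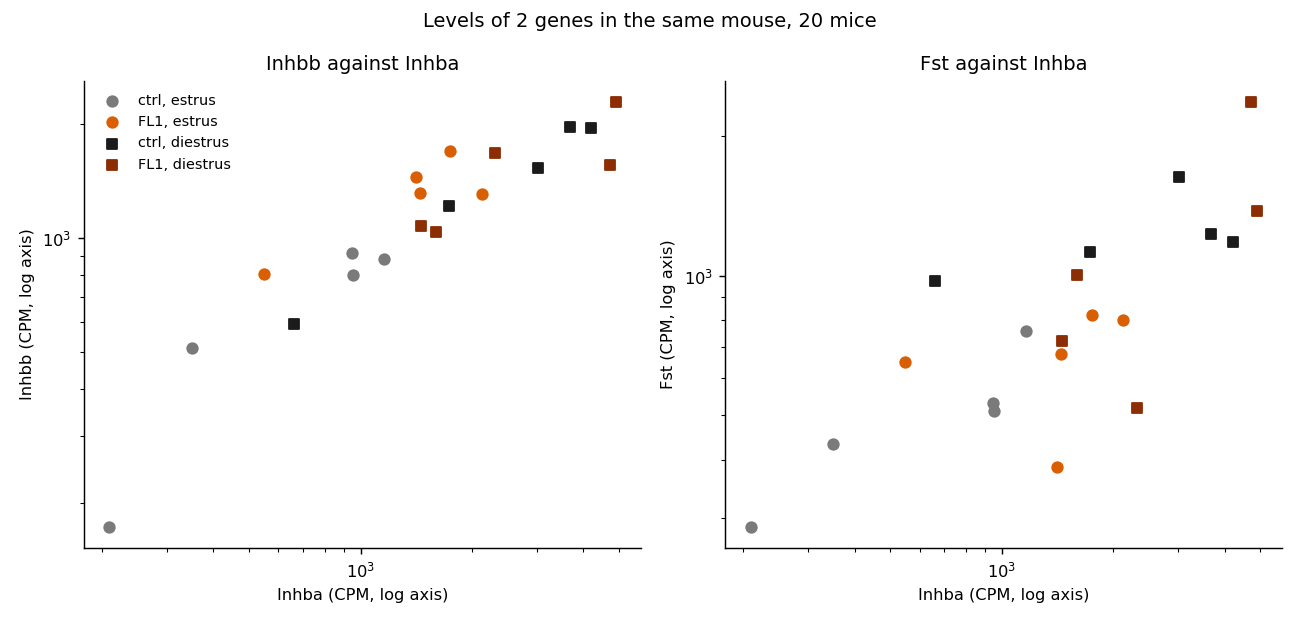
Left, Inhbb against Inhba, and right, Fst against Inhba, in CPM on log axes in each of the 20 mice (circles for estrus, squares for diestrus, grey and black for ctrl, orange and brown for FL1). Inhba and Inhbb rise together over the 20 mice (r = 0.924), while Fst follows Inhba more loosely (r = 0.776). The geometric mean ratio of Inhba to Inhbb was 1.06 in ctrl and 1.04 in FL1 mice in estrus, against 1.66 and 1.79 in diestrus.

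The balance of subunits was described by ratios of counts within a mouse, which do not depend on the scaling of the libraries, and no test was made. Ratios of counts do not give amounts of protein. The ratio of Inhba to Inhbb was above 1 in 17 of 20 mice, and its geometric mean was 1.06 in ctrl and 1.04 in FL1 mice in estrus against 1.66 in ctrl and 1.79 in FL1 mice in diestrus. On the log2 scale diestrus exceeded estrus by 0.64 (standard error 0.24) in ctrl mice and by 0.79 (standard error 0.30) in FL1 mice, whereas the lines differed by −0.03 (0.26) in estrus and 0.11 (0.28) in diestrus. The groups overlapped in all 4 comparisons of this ratio.

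The ratio of Inha to the sum of Inhba and Inhbb was 2.97, 10.5, 2.53, 4.79 and 2.47 in ctrl mice in estrus and 1.10, 2.02, 1.70, 1.49 and 1.52 in FL1 mice in estrus. Here the lines did not overlap, since the lowest ctrl mouse was above the highest FL1 mouse. The difference of FL1 from ctrl mice was −1.35 on the log2 scale (standard error 0.42), and the highest ratios were those of ctrl mice 2 and 4, which were low in Inhba and Inhbb. In diestrus the ratio was 0.868, 0.972, 1.73, 3.65 and 1.68 in ctrl mice and 1.70, 1.62, 0.659, 0.897 and 0.958 in FL1 mice, so the lines overlapped (difference −0.51, standard error 0.45). A ratio below 1, with more reads of beta than of alpha subunit genes, occurred in diestrus in 2 of 5 ctrl mice and 3 of 5 FL1 mice and in no mouse in estrus. The separation of the lines in estrus was the only one, as the groups overlapped in every other comparison of the 3 ratios. How often ratios of other genes separate the lines was not examined. Inha, Inhba and Inhbb did not pass edgeR's test between the lines in estrus with the filter on low counts.

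**Figure D3:**
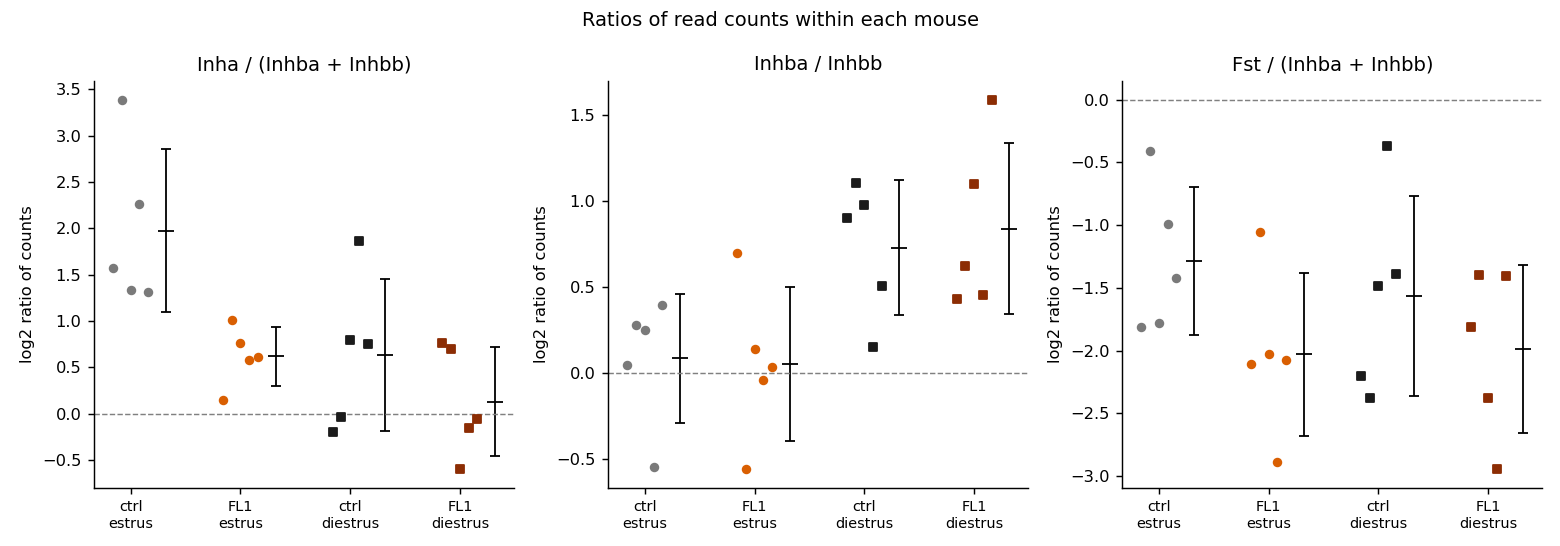
Log2 ratios of read counts within each mouse for Inha to the sum of Inhba and Inhbb, Inhba to Inhbb, and Fst to the sum of Inhba and Inhbb, with 5 mice per group and the mean and standard deviation beside them (dashed line: equal counts). In estrus the ctrl points of the ratio of Inha to beta subunits (2.47 to 10.5) lie above all FL1 points (1.10 to 2.02). In every other comparison of lines or of stages shown here the groups overlap, and no test was made.

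Markers of other cell states moved with these comparisons. The 6 genes that mark luteinized granulosa or luteal cells summed to 365 to 1664 CPM in ctrl mice and 4372 to 9666 CPM in FL1 mice in estrus, and 4 of the 6 (Lhcgr, Prlr, Akr1c18 and Star) were called higher in FL1 mice, where 0.769% of all genes tested were called. In diestrus their sum was 519 to 1290 CPM in ctrl and 1092 to 4076 CPM in FL1 mice, with Star called (0.248% of all genes tested). The 8 granulosa markers summed to 6787 to 8534 CPM in estrus and 8773 to 10492 CPM in diestrus in ctrl mice, and to 3866 to 7618 and 6924 to 10504 CPM in FL1 mice. With the line taken into account, Fshr, Cyp19a1 and Gja1 of this list were called higher in diestrus, as was Cyp17a1 of the theca list, and Cyp11a1 and Star of the luteal list were called lower (3.17% of all genes tested were called). Uncalled genes of these lists went the other way, with Amh (0.235-fold), Foxl2 (0.963), Hsd17b1 (0.947) and Gli1 (0.497) lower and Lhcgr (1.19) higher. The remaining genes tested went the way of the called ones. Lhcgr and Prlr were higher in diestrus in ctrl mice (2.77- and 1.80-fold) and lower in FL1 mice (0.529- and 0.550-fold), without being called. With the stage taken into account, 5 of the 6 luteal markers and Lyz2 of the leucocyte list (4.26-fold, adjusted p = 0.00226 from edgeR) were called higher in FL1 mice, where 1.21% of all genes tested were called. The leucocyte sum was 15.7 to 55.0 CPM in ctrl and 40.0 to 97.8 CPM in FL1 mice in estrus, and 3.39 to 14.2 and 11.1 to 74.2 CPM in diestrus. The 6 stroma and smooth muscle markers summed to 466 to 1304 CPM in estrus and 186 to 753 CPM in diestrus in ctrl mice, and to 725 to 1415 and 96.0 to 1622 CPM in FL1 mice. None of these 6 was called, but 5 of them, Dcn, Col1a1, Pdgfra, Lum and Acta2, had an unadjusted p under 0.05 between the stages in ctrl mice, at 0.395, 0.393, 0.375, 0.423 and 0.520 times the estrus level. Of all genes tested, 11.8% had such an unadjusted p in this comparison. Over all mice the sums were 49.6 to 524 CPM for oocyte, 0 to 10.4 for cumulus, 9.84 to 82.3 for endothelial, 0.725 to 34.8 for surface epithelium and 42.4 to 1287 CPM for blood markers, and no gene of these lists was called by edgeR. The part of these shifts in the values of the 9 genes was not tested.

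Fst (ENSMUSG00000021765, chromosome 13, 114452290 to 114458951, minus strand) encodes follistatin, which binds activin tightly and keeps it from its receptors. Ctrl mice 1 to 5 held 531, 287, 510, 432 and 760 CPM in estrus and 1228, 1182, 1628, 971 and 1125 CPM in diestrus. The lowest diestrus value was above the highest estrus value, so that the stages did not overlap, as was the case with a higher level in diestrus for 1.80% of the 12850 genes tested in ctrl mice. FL1 mice held 801, 649, 677, 387 and 820 CPM in estrus and 721, 1004, 1379, 519 and 2364 CPM in diestrus. Here the stages overlapped, with FL1 mice 1 and 4 in diestrus within the estrus range and FL1 mouse 5 in diestrus as the highest of all 20 mice.

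The stage effect on Fst was 2.43-fold in ctrl mice (adjusted p = 0.0101 from edgeR, log2 fold change 1.28 with a 95% confidence interval of 0.79 to 1.77). In the edgeR fit of all ctrl mice alone, with the filter on low counts, Fst was the only member called, where 1.36% of the genes tested were called and 0.786% as higher. In FL1 mice the effect was 1.79-fold (0.84, interval 0.14 to 1.54, adjusted p = 0.392), and the difference of the effects was −0.43 with an interval of −1.31 to 0.45, so that a weaker effect in FL1 mice was not shown. The line effects on Fst were 0.40 in estrus (−0.12 to 0.92) and −0.03 in diestrus (−0.70 to 0.64). Fst stayed called for stage in all 10 fits that left out 1 ctrl mouse, with adjusted p of at most 0.0345 from edgeR, and in all 20 fits with the lines combined, with at most 0.0171. A gene on the opposite strand, Gm47040, overlaps Fst, but it held 297 reads over all mice against 1850 to 13960 reads of Fst per mouse.

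Follistatin counts did not reach those of the beta subunits, as the ratio of Fst to the sum of Inhba and Inhbb was below 1 in 20 of 20 mice. Its geometric mean was 0.410 in ctrl and 0.245 in FL1 mice in estrus, and 0.338 in ctrl and 0.252 in FL1 mice in diestrus. The groups overlapped in all 4 comparisons, and the largest difference was that of the lines in estrus with −0.75 on the log2 scale (standard error 0.39). Between the stages this ratio differed by −0.28 (0.44) in ctrl and 0.04 (0.42) in FL1 mice.

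Fstl3 (ENSMUSG00000020325, chromosome 10, 79777272 to 79782630, plus strand) encodes follistatin-like 3, a related activin-binding protein, and was the lowest of the 9 genes. Its levels were 8.70, 30.4, 8.66, 11.6 and 1.90 CPM in ctrl mice in estrus and 1.26, 35.2, 6.13, 2.82 and 8.02 CPM in FL1 mice in estrus. In diestrus they were 8.58, 8.99, 5.22, 0 and 4.27 CPM in ctrl mice and 0, 6.68, 0, 4.91 and 4.23 CPM in FL1 mice. The 2 highest values belonged to ctrl mouse 2 and FL1 mouse 2 in estrus, which were also low in Inhba and Inhbb, and the 3 mice without a read were all in diestrus. Ctrl mouse 4 in estrus (11.6 CPM) and ctrl mouse 4 in diestrus (0 CPM) were low in Inhba and Inhbb as well. Within groups, Fstl3 had an r of −0.051 with Inhba and −0.070 with Inhbb. A count of 0 allows up to 3 reads and covers counting error only. The stage effect with the line taken into account was −1.45 on the log2 scale with a wide interval of −2.98 to 0.08 (adjusted p = 0.377 from edgeR). Fstl3 had at most 281 reads per mouse.

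The receptor genes were measured at 10 to 292 reads per mouse. Acvr1b (ENSMUSG00000000532, chromosome 15, 101174067 to 101213684) encodes the type I receptor ALK4, and Acvr2a (ENSMUSG00000052155, chromosome 2, 48814109 to 48903269) and Acvr2b (ENSMUSG00000061393, chromosome 9, 119402118 to 119434995) encode the type II receptors. Group means of Acvr1b lay between 22.9 and 24.6 CPM, those of Acvr2a between 17.3 and 22.0 CPM and those of Acvr2b between 12.6 and 19.9 CPM, and every step between neighbouring groups was smaller than the larger SD. Within a group, however, Acvr1b ranged from 1.41 to 45.4 CPM in FL1 mice in estrus and Acvr2b from 2.39 to 26.7 CPM.

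None of the 3 receptor genes passed a test. Their stage effects with the line taken into account were 0.02 for Acvr1b (−0.75 to 0.79), 0.09 for Acvr2a (−0.41 to 0.58) and 0.26 for Acvr2b (−0.48 to 0.99). Line effects with the stage taken into account were −0.08 for Acvr1b (−0.85 to 0.69), 0.04 for Acvr2a (−0.46 to 0.54) and −0.17 for Acvr2b (−0.90 to 0.57). The intervals of Acvr2a were the narrowest of the 3 in both tests. The 3′ end of Acvr2a overlaps that of Orc4 on the opposite strand, which held 5626 reads in all. The paper names a forward (Fw) 3′ library kit and the use of its maker's recommended options. Since the strand setting of the counting itself is not given in the sources used here, reads of these 2 genes cannot be told apart with certainty.

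Tgfbr3 (ENSMUSG00000029287, chromosome 5, 107106570 to 107289629, minus strand) encodes betaglycan. Its levels were 57.4, 56.2, 113.2, 95.2 and 63.9 CPM in ctrl mice in estrus and 72.1, 106.4, 36.0, 25.9 and 41.5 CPM in FL1 mice in estrus. The diestrus samples held 50.8, 157, 124, 147 and 104.3 CPM in ctrl mice and 56.4, 99.4, 75.4, 63.5 and 89.6 CPM in FL1 mice. In diestrus 4 of 5 ctrl mice were above every FL1 mouse, and ctrl mouse 1 was below all of them. Group means were 77.2 ± 25.6 CPM (SD, n = 5) in ctrl and 56.4 ± 32.9 in FL1 mice in estrus, and 117 ± 42.1 in ctrl and 76.9 ± 17.8 in FL1 mice in diestrus. The line effect was −0.46 in estrus (−1.16 to 0.25) and −0.59 in diestrus (−1.16 to −0.02), and −0.53 with the stage taken into account (standard error 0.23, −0.99 to −0.06, adjusted p = 0.359 from edgeR). The stage effect with the line taken into account was 0.53 (0.07 to 0.99, adjusted p = 0.247 from edgeR). Neither passed the test after adjustment over all genes. Short genes on the same strand overlap Tgfbr3 and held at most 258 reads in all mice together.

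Taking the 9 genes as a list, 0 of 9 were called between the lines in estrus by edgeR, where 0.769% of 13007 genes were, and 0 of 9 in diestrus, where 0.248% of 12886 genes were. At an unadjusted p under 0.05 these counts were 2 (Inhba and Inhbb) and 1 (Tgfbr3), against 10.7% and 5.56% of all genes tested, and DESeq2 called 0 of 9 in both stages. Without the filter on low counts, edgeR called Inhba and Inhbb in estrus (adjusted p = 0.00881 and 0.00400), among 373 genes called. With the stage taken into account, 0 of 9 were called between the lines (1.21% of 14938 genes) and 2, Inhbb and Tgfbr3, had an unadjusted p under 0.05 (11.0% of all genes tested), again with 0 by DESeq2. The median line effect over the 9 genes was −0.12 in estrus and −0.03 in diestrus, and that over all genes tested was 0.01 in both stages.

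For the stages, 1 of 9 was called in ctrl mice and 0 of 9 in FL1 mice by edgeR, where 0.221% of 13114 genes were called. In FL1 mice 2 of 9, Inhba and Fst, had an unadjusted p under 0.05 against 9.48% of all genes, and DESeq2 called 0. In ctrl mice 3 of 9, Inhba, Inhbb and Fst, had an unadjusted p under 0.05 against 11.8% of all genes, and DESeq2 called Inhba and Fst. Without the filter on low counts, edgeR called Inhba, Inhbb and Fst in ctrl mice, among 348 genes called, and Inhba in FL1 mice, among 299. With the line taken into account 4 of 9, Inhba, Inhbb, Fst and Tgfbr3, had an unadjusted p under 0.05, against 14.6% of all genes. The median stage effect of the 9 genes was 0.35 in ctrl and 0.22 in FL1 mice, beside 0.00 and 0.01 over all genes tested. The comparisons share samples with each other, so their results are not independent. A difference of the line effects between stages was called for 0 of 9 members and 0 of 14938 genes (0%) by edgeR, with 0 members and 710 genes (4.75%) at an unadjusted p under 0.05, and DESeq2 called 0 members and 1 gene.

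**Figure D4:**
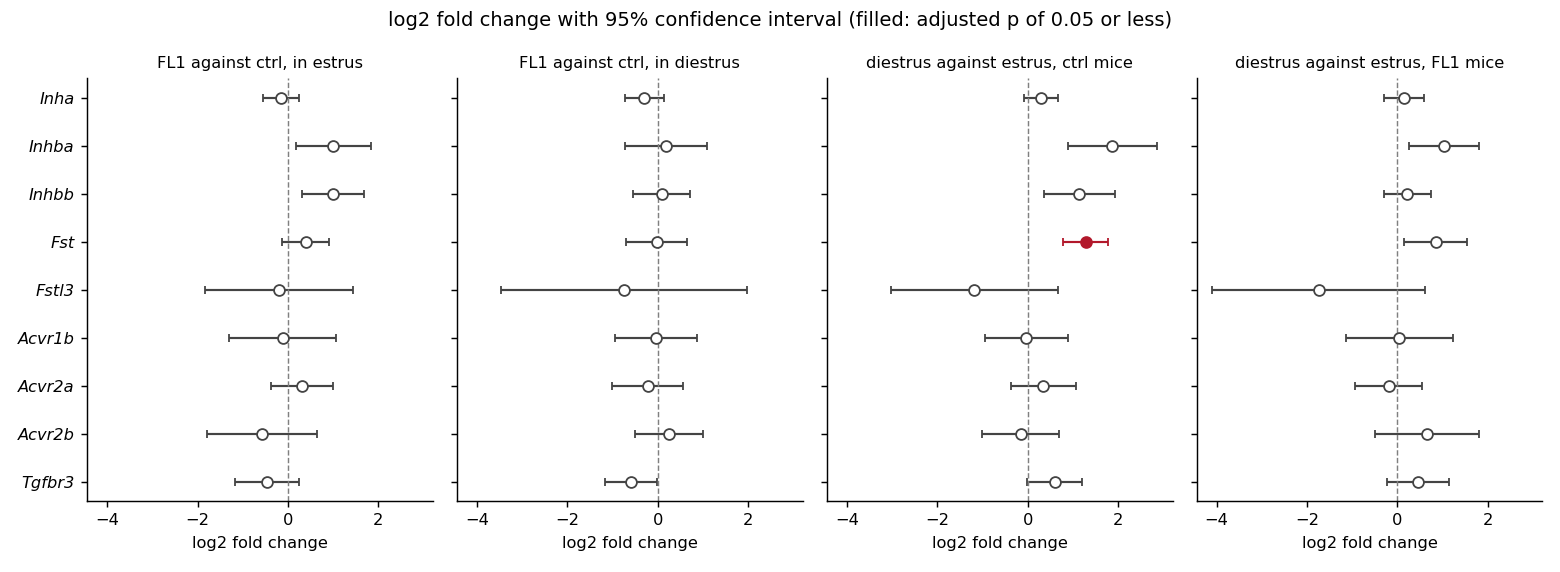
Log2 fold change (horizontal axis) of each of the 9 genes with its 95% confidence interval in the 4 comparisons of 5 against 5 mice, with filled red points for an adjusted p of 0.05 or less. Fst between the stages in ctrl mice (1.28) is the 1 filled point, and Fstl3 has the widest intervals.

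The genes whose log2 levels over the 20 mice were most alike to a member, out of 14938 genes, were listed as a description. For Inhba these were Inhbb (r = 0.924), Myo6 (0.885) and Ext1 (0.877), and for Inhbb they were Inhba, Gdnf (0.842) and Arhgap18 (0.840). Fst was most like Ext1 (0.912), Zswim6 (0.873) and Foxp1 (0.868). Inha had weaker partners, Grem1 (0.781), Csrp2 (0.780) and Mid1ip1 (0.730), and no other member of the 9 among them. Within groups these correlations ranged from 0.649 for Inha and Mid1ip1 to 0.910 for Inhba and Inhbb. The correlation of Fst with Inhba was 0.776 over all mice and 0.602 within groups, and that of Fst with Inhbb 0.627 and 0.449.

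A list of 36 further genes of the pathway gave the context of the 9. Of these, 27 were tested in all 7 comparisons and 7 in none for lack of reads. With the line taken into account, 29 were tested between the stages, of which 2 were higher and 1 was lower in diestrus (3.17% of all genes were called and 1.61% as higher), and the median log2 fold change of the list was −0.11 beside 0.02 over all genes. Bmpr2, a type II receptor of the bone morphogenetic proteins that also binds other ligands of the family, was 1.99-fold higher in diestrus (adjusted p = 0.00346 from edgeR) and Tgfbr1, the type I receptor of TGF-beta, 1.88-fold (adjusted p = 5.57e-04). Fkbp1a, the immunophilin that holds type I receptors inactive, was 0.695 times as high (adjusted p = 0.0320).

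Within ctrl mice the same receptors, Bmpr2 (2.45-fold, adjusted p = 0.00209 from edgeR) and Tgfbr1 (2.16-fold, adjusted p = 0.00824), were called of 28 tested, against 1.36% of all genes. Within FL1 mice 0 of 27 were called by edgeR (0.221% of all genes), with 8 at an unadjusted p under 0.05 (9.48% of all genes) and Bmpr2 at 1.60-fold and Tgfbr1 at 1.61-fold. The 2 lowest p values in FL1 mice belonged to Fstl1, a follistatin-related secreted protein (0.361-fold, adjusted p = 0.181), and Tgfbr1 (0.225). Pcsk6, a protease that can process precursors of the family, was 0.201-fold in diestrus in ctrl mice without passing the test (adjusted p = 0.0829). Between the lines 0 of 28 genes of the list were called in estrus and 0 of 27 in diestrus by edgeR, with 7 and 1 at an unadjusted p under 0.05 against 10.7% and 5.56% of all genes. The lowest adjusted p of these was that of Bambi, a pseudoreceptor that dampens activin signals, which was 2.16-fold higher in FL1 mice in diestrus (adjusted p = 0.102 from edgeR), followed by Fstl1 with 1.97-fold in estrus (0.161). The next lowest within each stage were Ski, a repressor of SMAD signals, in estrus (0.690-fold, adjusted p = 0.274 from edgeR) and Pcsk5, another protease of precursors, in diestrus (0.671-fold, adjusted p = 0.976). With the stage taken into account 0 of 29 were called between the lines, 5 having an unadjusted p under 0.05 against 11.0% of all genes, and the lowest adjusted p belonged to the transcriptional corepressor Tgif1 (0.703-fold, adjusted p = 0.203 from edgeR) and to Fkbp1a (1.28-fold, adjusted p = 0.279). For the interaction it was 0 of 29 as well, with 2 at an unadjusted p under 0.05 against 4.75% of all genes, Pcsk6 and the ubiquitin ligase Smurf2. DESeq2 called 0 genes of the list between the lines in estrus, 1 in diestrus (Bambi), 0 with the stage taken into account, 0 for the interaction and 0 between the stages in FL1 mice, while it added Pcsk6 as lower to the calls in ctrl mice. Between the stages with the line taken into account DESeq2 called 3 higher and 2 lower, adding Tgif1 as higher and Pcsk6 as lower.

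**Figure D5:**
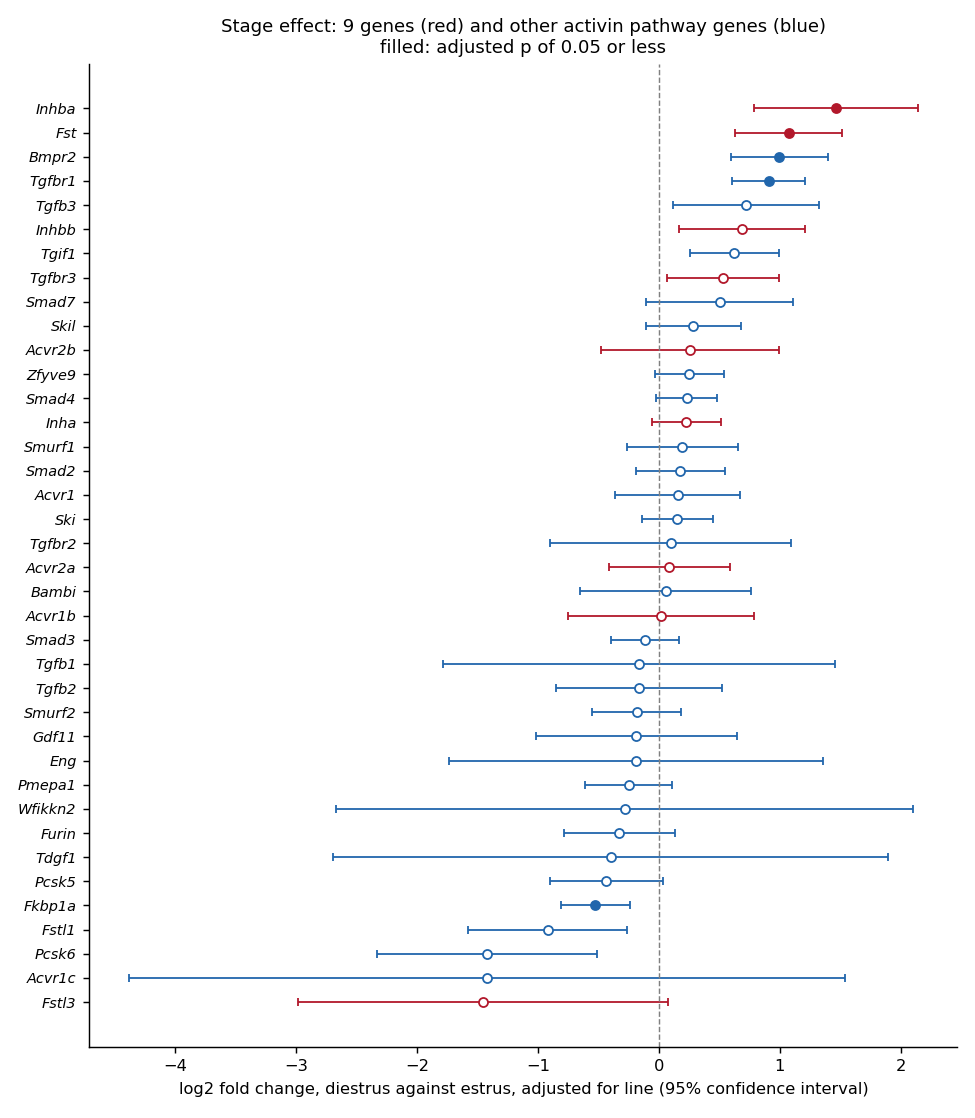
Log2 fold change of diestrus against estrus with the line taken into account and its 95% confidence interval, for the 9 genes (red) and the 29 other pathway genes tested (blue), sorted by value, with filled points for an adjusted p of 0.05 or less. Inhba (1.46), Fst (1.07), Bmpr2 and Tgfbr1 are filled at the upper end. Of the genes below 0 only Fkbp1a (−0.53) is filled, and the unfilled Fstl3, Pcsk6 and Fstl1 lie lower.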

How the data were processed

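GCs of 20 mice, 5 per line and stage, were sequenced from the 3′ end of transcripts. After trimming and alignment to GRCm38 with STAR, the authors deposited raw read counts per Ensembl gene. The strand setting is not given in the sources used here, and reads with several matches (23.2% to 32.8%) are set apart from the counts. Symbols and positions came from GENCODE M21, which held 55227 of 55487 identifiers.

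The members, the pathway and marker lists and the alternatives were chosen with earlier results of these data known. The pathway genes named are those called in any comparison and the 2 with the lowest p in each. Genes were tested with edgeR 4.0.16 in R 4.3.3 (filterByExpr with 10, 15 and 0.7, TMM, quasi-likelihood F test, Benjamini-Hochberg over all genes tested, threshold 0.05) in 7 comparisons: the lines within each stage, the stages within each line, line adjusted for stage, stage adjusted for line, and their interaction. The standard error follows from the fold change and its F value. CPM use TMM factors of all 20 samples, and log2 CPM for correlations a prior count of 2. Levels, ratios, overlaps and figures were made with Python 3.11.15, pandas 2.3.3 and matplotlib 3.10.9. Near-identical copies of the last 500 nt of the transcripts were searched with BLAST 2.17.0 (at least 90% identity over at least 100 nt), and the only hits were the overlapping genes Prss57 for Fstl3 and Orc4 for Acvr2a. Promoter windows were found for 7 of the 9 genes in RefSeq, and Fst and Tgfbr3 were not matched. Alternatives were DESeq2 1.42.0, RLE size factors, no filter on low counts, robust estimation, the replicate number as a block, all 20 samples in 1 fit, and each mouse left out in turn. The fits for the lines in estrus and for the interaction were tested on simulated data with known changes. The other comparisons, those of the stages among them, were not simulated. No pair of libraries agreed within sampling noise. Depths of 5446576 to 8257041 counted reads limit the precision for genes of few reads, and p-values set a difference between groups against the spread between mice of a group.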

Additional observations from a re-analysis of the deposited data

Results flagged for a closer look

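In 48 sets of 5 mice (the 9 genes and the 3 ratios in each of the 4 groups) the highest and lowest mouse were compared with the rest by Dixon's criterion at its 95% critical value, which chance exceeds in about 1 of 20 sets. It was exceeded 3 times. FL1 mouse 2 in estrus held 35.2 CPM of Fstl3 where the next mouse of the group held 8.02 CPM (gap over range 0.801). The same library had the highest luteal marker sum of all mice with 9666 CPM and the lowest granulosa marker sum with 3866 CPM, and their part in this value was not tested. Ctrl mouse 3 in estrus held 24.5 CPM of Acvr2a against 16.1 CPM in the next mouse (0.861), and FL1 mouse 4 in estrus held 26.2 CPM of Acvr2a against 20.99 CPM (0.814).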

How the results depend on the processing

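Fst kept its call for stage in ctrl mice and with the lines combined under all alternatives, and Inhba with the lines combined under all but robust estimation, where 1 member (Fst) was called and Inhba had 1.46 with adjusted p = 0.0519 from edgeR. Calls of members were gained without a filter on low counts (2, Inhba and Inhbb, between the lines in estrus, with adjusted p = 0.00881 and 0.00400 from edgeR, 3 between the stages in ctrl mice with Inhba and Inhbb added, 1, Inhba, in FL1 mice, and Inhbb between the stages with the line taken into account at adjusted p = 0.0486), and in ctrl mice by DESeq2 (2) and all 20 samples in 1 fit (2), each with Inhba added (adjusted p = 0.0486 and 0.0430). Leaving out 1 mouse gave 1 to 2 called members in ctrl mice and no change of such a count elsewhere. DESeq2 called 425 genes between the lines in estrus, 118 in diestrus, 526 between the stages in ctrl mice, 265 in FL1 mice, 438 between the lines with stage and 873 between the stages with line taken into account, and 1 for the interaction. Without the filter the counts were 373 in estrus and 55 higher and 52 lower in diestrus between the lines, 348 in ctrl and 299 in FL1 mice between the stages, 319 between the lines with stage taken into account and 6 for the interaction. All 20 samples in 1 fit gave 65 in FL1 mice. The replicate numbers name different mice (correlations of equal numbers −0.166 to 0.117), and the replicate number as a block gave 58 genes between the lines in estrus and 13 in diestrus, and no call of a member changed and the uncalled Acvr1b took 0.051 in diestrus between the lines and −0.0044 between the stages with the line.

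Without 1 mouse the counts of genes ranged from 66 (without FL1 mouse 1) to 130 for the lines in estrus, from 21 (without FL1 mouse 4) to 32 in diestrus, from 77 to 176 for the stages in ctrl mice, from 13 to 178 in FL1 mice, from 139 to 209 and from 324 to 728 for line and stage in the combined fits, and stayed at 0 for the interaction. For the stages in ctrl mice they fell below the main 175 by over 1.5 times without mouse 2 (88), 3 (91) or 4 (100) in estrus and 3 (64 higher and 40 lower) or 5 (77) in diestrus, and in FL1 mice they left 29 without mouse 1 (178), 2 (18), 3 (13), 4 (14) or 5 (14) in diestrus, mouse 1 also giving the 728. Uncalled effects that changed sign ranged between the lines in diestrus from −0.43 to 0.16 (Fst), −0.066 to 0.40 (Inhba), −0.11 to 0.22 (Inhbb) and −0.31 to 0.24 (Acvr1b), and in estrus from −1.43 to 0.47 (Fstl3) and −0.52 to 0.19 (Acvr1b). With the stage taken into account they ranged from −0.27 to 0.066 (Acvr1b) and −0.025 to 0.14 (Acvr2a). Between the stages the ranges were −0.30 to 0.21 (Acvr1b) and −0.33 to 0.058 (Acvr2b) in ctrl mice, −0.26 to 0.44 (Acvr1b) in FL1 mice, and −0.13 to 0.21 (Acvr1b) and −0.014 to 0.18 (Acvr2a) with the line taken into account. For the interaction they were −0.26 to 0.0059 (Inha), −1.23 to 0.66 (Fstl3), −0.24 to 0.48 (Acvr1b) and −0.33 to 0.22 (Tgfbr3). The cause was not tested. Fstl3 held 0 to 281 reads per mouse and the 3 activin receptor genes 10 to 292.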
